A study of Gallus gallus with 10 samples.

Results

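Genes for the enzymes that build, attach and trim protein-bound sugar chains were examined in the magnum, the part of the oviduct where albumen is secreted. Members were taken from the deposited count table by gene symbol: the ALG, DPM, STT3, MAN1, MAN2, MGAT, GALNT, GCNT, B3GALT, B4GALT, B3GNT, ST3GAL, ST6GAL, ST8SIA and FUT families, with RPN1, RPN2, DDOST, DAD1, DPAGT1 and MOGS. This gave 103 of the 29558 genes in the table, under 101 symbols, since MGAT4C and B4GALT3 each stand on 2 rows. OSTC and GANAB, also in the rule, were not analysed here. RNA of whole magnum tissue came from broiler breeder hens (Gallus gallus), 5 at 50 weeks of age, in declining lay, and 5 at 35 weeks, at peak lay, each library from a separately numbered bird with an egg in the magnum. The series asked how gene expression in the magnum varies between these ages. The labels give no treatment other than age, and their titles mention the shell gland, which lies further down the oviduct.

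Sugar chains are attached to secreted proteins by 2 main routes. N-glycans are preassembled on the lipid dolichol in the endoplasmic reticulum, moved as a block to asparagine by the oligosaccharyltransferase, trimmed by glucosidases and mannosidases, and rebuilt in the Golgi with GlcNAc branches, galactose, sialic acid and fucose. O-glycans of the mucin type start in the Golgi with a GalNAc placed on serine or threonine and are extended step by step. Egg white is rich in glycoproteins, and hen ovomucoid is known for heavily branched N-glycans.

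Library totals were low, between 188271 and 258195 counts, and a count of 0 in a library leaves room for 11.6 to 15.9 CPM (counts scaled to a common library size), a limit that covers counting error only. Marker genes of the egg-white-secreting gland cells were all detected (8 of 8) and summed to between 27281 and 40537 CPM in 50-week hens and between 40399 and 53709 CPM in 35-week hens. Of 5 shell gland markers CALB1, SLC26A9 and SPP1 had no count, and the summed level was 3.9 to 29.2 CPM in 50-week hens and 0 to 44.8 CPM in 35-week hens. Replicate 4 at 50 weeks and replicates 1 and 2 at 35 weeks lay away from the remaining 7 libraries on the first principal component over 500 variable genes, with scores of 11.06, 10.55 and 16.99 against −7.11 to −1.75. Of the 7 fibroblast markers 1, the collagen gene COL6A2, was high in these libraries, with 226 counts in that 50-week library against 7, 12, 16 and 2 in the others of its age. At 35 weeks COL6A2 had 97 and 124 counts in replicates 1 and 2 and 1, 38 and 10 in replicates 3, 4 and 5. The other 6 fibroblast markers together held 4 to 6 counts per library at 50 weeks and 1 to 13 at 35 weeks, with 5, 4 and 4 in the 3 libraries named. In whole tissue, fewer cells of a type and less RNA per cell cannot be told apart.

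Counts were found at all 12 steps into which the genes were sorted, but few genes held most of them. Of the 103 genes 82 had a count in at least 1 library (79.6%, against 74.9% of all genes with a symbol). A count in all 10 libraries was found for 21 (20.4%, against 18.1% of genes with a symbol). An average of 1 count or more per library was found for 45 (43.7%, against 34.7%). B3GNT7 alone held 65.8% of the 21053 counts of the group, and B3GNT7, B3GNT4 and MGAT4C together held 81.2%. These are shares of counts and not levels per length, because transcript lengths were not used. Of genes that most cells use, GAPDH had 1 to 3 counts per library at 50 weeks and 1 to 7 at 35 weeks, and EEF1A1 had 30 to 63 at 50 weeks and 29 to 84 at 35 weeks, so a low count here is no measure of absence. Per hen between 46 and 54 of the genes were detected at 50 weeks and between 46 and 60 at 35 weeks.

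**Figure D1:**
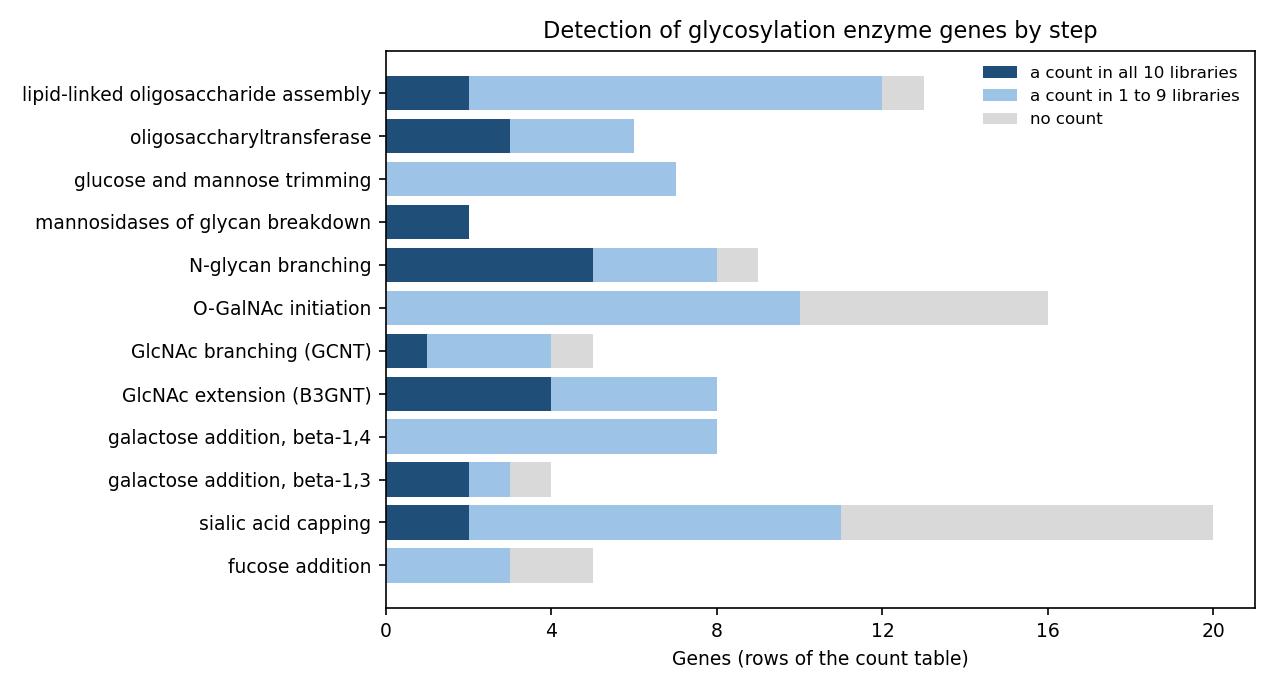
Number of genes (x axis) at each glycosylation step (rows) with a count in all 10 libraries, in 1 to 9 libraries, or in none. GlcNAc extension, N-glycan branching and the oligosaccharyltransferase hold 4, 5 and 3 genes detected in every hen, whereas O-GalNAc initiation, beta-1,4-galactose addition, glucose and mannose trimming, and fucose addition hold none.

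Taken as a share of each library, the group was higher at 50 weeks. The share was 0.988%, 1.15%, 1.23%, 0.942% and 1.14% in replicates 1 to 5 at 50 weeks, against 0.859%, 0.859%, 0.782%, 0.842% and 0.811% at 35 weeks. Every 50-week hen lay above every 35-week hen, with means of 1.09% ± 0.118 at 50 weeks and 0.831% ± 0.0336 at 35 weeks (SD, n = 5 each). No test is given for this sum, as the genes were picked with results of these data known. Most of the difference was B3GNT7: without it the shares averaged 0.367% ± 0.0478 at 50 weeks and 0.293% ± 0.0175 at 35 weeks, and the groups overlapped. Without the 3 libraries that stood apart the difference of the full share was 0.313 percentage points, against 0.257 with all 10.

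Of the 103 genes 12 had enough counts to be tested one by one, and they held 94.9% of the group's counts. In edgeR (quasi-likelihood test, Benjamini-Hochberg adjustment over 1773 tested genes) none had an adjusted p below 0.05, and 1 of all tested genes (0.0564%) had. The lowest adjusted p among the 12 was 0.292. At an unadjusted p under 0.05 there were 2 of 12, B3GNT7 and MGAT4C, both higher at 50 weeks. Of all tested genes 10.5% were past this level, and 4.46% were past it and higher at 50 weeks. None of the 12 passed with DESeq2 (0.904% of all tested genes did) or limma-voom (0.677%). None passed in edgeR with a filter of 1 CPM, which a single count meets at these library totals (0.506%). The log2 fold change (50 over 35 weeks) was positive for 8 and negative for 4, against 50.8% positive over all tested genes, with a median of 0.20 against 0.0060 for all tested genes. Without the 3 libraries that stood apart the split was also 8 to 4. Over all 82 detected genes, in edgeR without the filter on low counts, 38 were positive and 44 negative. That split was close to all genes in this fit, of which 47.4% were positive.

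**Figure D2:**
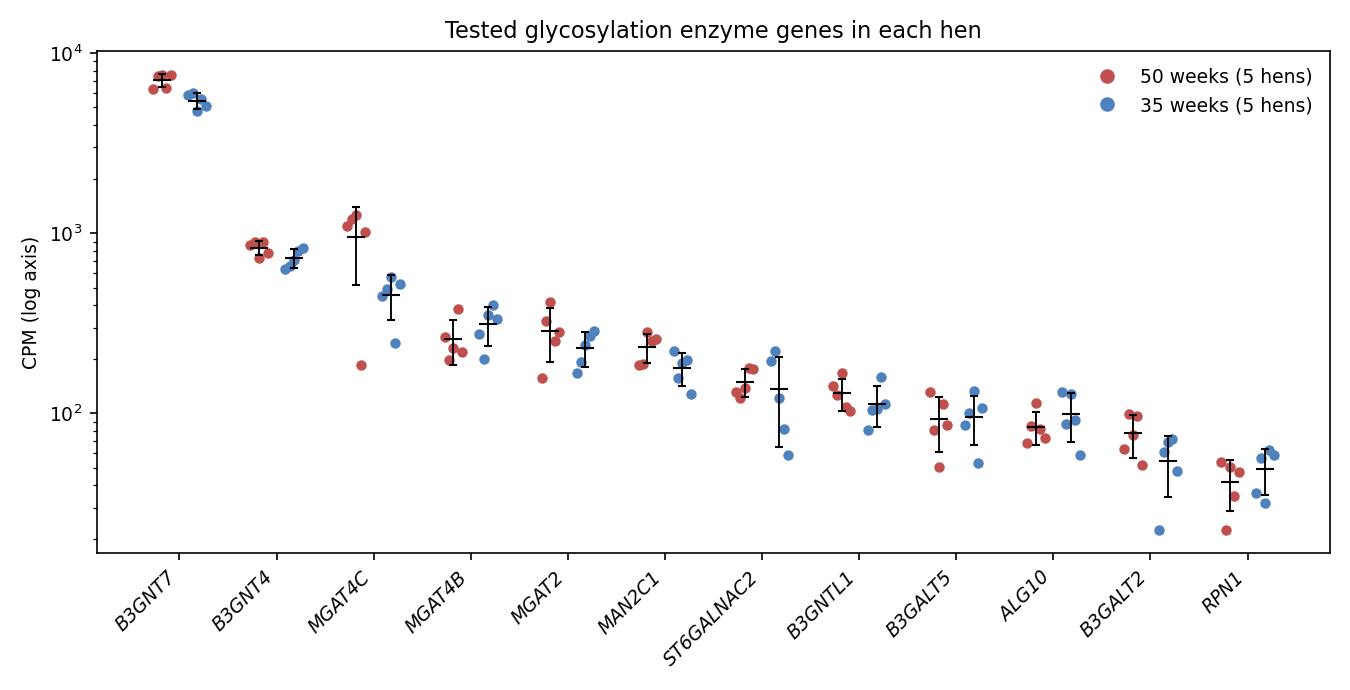
CPM (log axis) of the 12 tested genes in each of 5 hens at 50 weeks (red) and 5 at 35 weeks (blue), with mean ± SD in black. B3GNT7 separates the ages, MGAT4C does so except for 1 hen at 50 weeks, and the other 10 genes overlap.

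The enzymes that prepare and transfer the N-glycan precursor were at low counts. DPAGT1, which starts the dolichol-linked chain, had 12 counts over the 5 hens at 50 weeks and 12 over those at 35 weeks, DPM1, the catalytic subunit of dolichol-phosphate-mannose synthase, had 14 at 50 weeks and 12 at 35 weeks, and ALG5, which makes the glucose donor, had 24 at 50 weeks and 22 at 35 weeks. ALG10, which adds the last glucose, was the 1 tested gene of the 13 at this step. It had 68.6, 85.3, 113.8, 81.7 and 73.4 CPM in replicates 1 to 5 at 50 weeks, against 131.2, 87.4, 127.6, 91.8 and 58.8 CPM in 35-week hens. Its values overlapped, with a log2 fold change of −0.23 (SE 0.26 and adjusted p = 0.820). It was −0.10 without replicate 1 and −0.12 without replicate 3 at 35 weeks, −0.36 without replicate 5 at 35 weeks or replicate 3 at 50 weeks, and −0.11 without the 3 libraries that stood apart. ALG13, part of the enzyme that adds the second sugar, had no count, which over the pooled 2183562 counts allows a level of up to 1.37 CPM.

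All 6 oligosaccharyltransferase genes of the group were detected, and RPN1, RPN2, DDOST, STT3B, STT3A and DAD1 held 223 counts in all. RPN1, the structural subunit ribophorin I, had 53.9, 22.5, 50.6, 35.0 and 47.5 CPM in 50-week hens, against 36.2, 56.8, 31.9, 62.8 and 58.8 CPM in 35-week hens. The groups overlapped and the log2 fold change was −0.24 (SE 0.33 and adjusted p = 0.867), with −0.08 without replicate 2 at 50 weeks and −0.13 without replicate 4 at 35 weeks. RPN2 (ribophorin II) had 9 counts over 50-week hens and 19 over 35-week hens, and DDOST, another structural subunit, had 18 at 50 weeks and 23 at 35 weeks. Of the catalytic subunits, STT3B had 18 counts at 50 weeks and 15 at 35 weeks, and STT3A had 7 at 50 weeks and 5 at 35 weeks. The related subunits TUSC3, MAGT1 and TMEM258, outside the group, had 2, 8 and 7 counts. Summed over the 6 genes the level was 89.4 ± 18.1 CPM in 50-week hens and 116 ± 18.3 CPM in 35-week hens (SD, n = 5 each), with overlapping hens.

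Trimming enzymes were detected at a few counts each. MOGS, the glucosidase that removes the outermost glucose, had 9 counts at 50 weeks and 3 at 35 weeks, and the mannosidase MAN1B1 had 11 at 50 weeks and 8 at 35 weeks. MAN2A1 and MAN2A2, the Golgi mannosidases that act after the first GlcNAc is added, had 5 counts each in all 10 libraries together. MGAT1, which adds that first GlcNAc, was not analysed here.

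Among the enzymes that branch N-glycans, MGAT4C had the largest fold change of the 3 tested. The RefSeq gene table gives it the synonym GNT-VI: in the hen oviduct this enzyme, GlcNAc-transferase VI, adds a further GlcNAc to already branched N-glycans, the kind of chain found on ovomucoid. MGAT4C (ENSGALG00010025115, chromosome 26 at 951990 to 957182, GRCg7b) had 1097, 1199, 1272, 187 and 1015 CPM in replicates 1 to 5 at 50 weeks, against 448, 494, 574, 246.5 and 523 CPM in 35-week hens. Of the 50-week hens 4 lay above every 35-week hen, and replicate 4 lay below all of them. The means were 954 ± 440 CPM in 50-week hens and 457 ± 126 CPM in 35-week hens (SD, n = 5 each), a log2 fold change of 1.06 (SE 0.42, unadjusted p = 0.0296, adjusted p = 0.406 in edgeR).

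The hen that was low for MGAT4C was 1 of the 3 whose libraries stood apart. Without it the 50-week mean was 1146 ± 113 CPM (SD, n = 4), the log2 fold change was 1.34 (SE 0.20) and edgeR's adjusted p was 0.00651, in a fit that called 0.654% of genes. The hen was left out with its low MGAT4C value known, so this adjusted p is no separate support. With replicates 1 and 2 at 35 weeks left out as well, the log2 fold change was 1.37 (SE 0.24 and adjusted p = 0.0179), where 2.3% of genes were called. Those 2 hens at 35 weeks had 448 and 494 CPM of MGAT4C, within the range of the other 3 hens of their age. Of 6 T cell markers CD3E alone had counts in replicate 4 at 50 weeks, with 103 there, 13 to 32 in the other 50-week hens and 29 to 44 in 35-week hens. The other 5 had no count at 50 weeks, and CD3D, CD4 and TRAT1 had none in any library. Both goblet or mucous markers read here were highest of their age in replicate 4 at 50 weeks. MUC6 had 58 counts there, 3 to 27 in the other 50-week hens and 11 to 25 in 35-week hens. AGR2 had 13 there, 0 to 3 in the other 50-week hens and 0 to 15 in 35-week hens. Summed ciliated and endothelial markers, mostly CCDC65 and VWF, were at 608.1 and 507.4 CPM there. In the other hens they spanned 851.0 to 1550.1 and 566.4 to 972.0 CPM. Summed markers of the egg-white-secreting gland cells were at 29032 CPM in replicate 4 at 50 weeks, within the 27281 to 40537 CPM of the other 50-week hens. Its summed B and plasma cell markers (89.1 CPM) and macrophage markers (58.1 CPM) also lay within the other 50-week hens (52.5 to 114.4 and 48.9 to 78.8 CPM). The part of the marker differences in the low MGAT4C value was not tested.

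**Figure D3:**
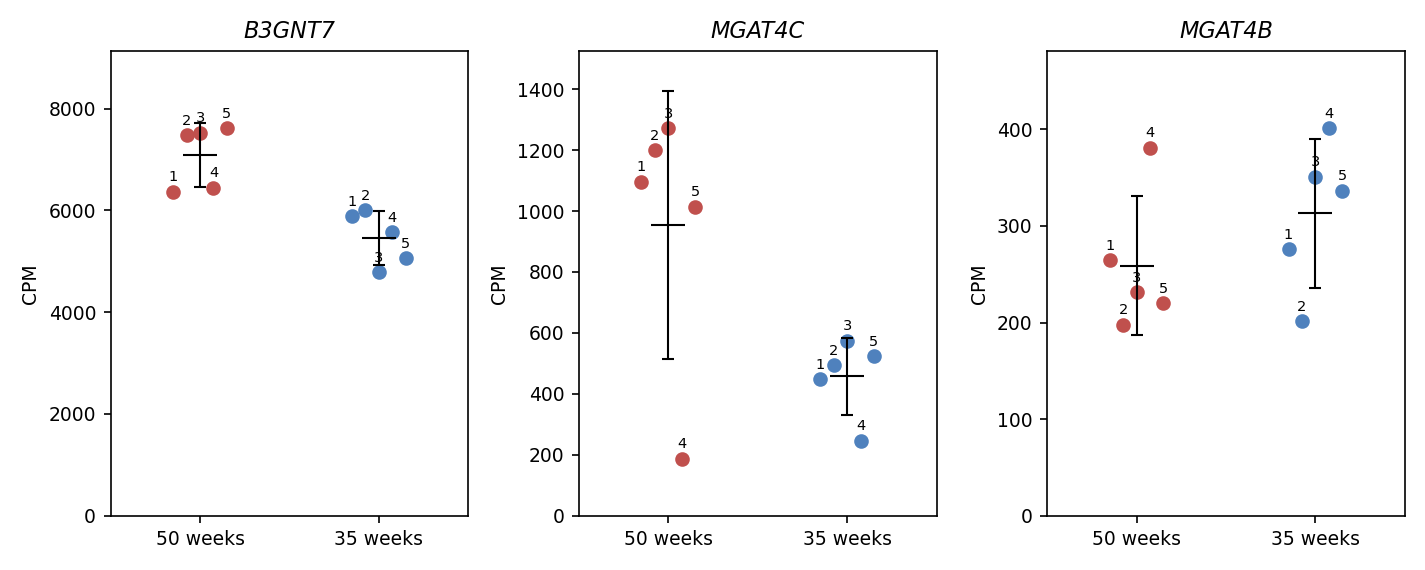
CPM of B3GNT7, MGAT4C and MGAT4B in each hen at 50 weeks (left) and 35 weeks (right), numbered by replicate, with mean ± SD in black. B3GNT7 lies between 6369 and 7617 CPM in 50-week hens and between 4781 and 6007 CPM in 35-week hens, and replicate 4 at 50 weeks is the lowest hen for MGAT4C and the highest of its age for MGAT4B.

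MGAT4B and MGAT4A, relatives of MGAT4C that place the GlcNAc branch common to many N-glycans, lay closer together between the ages in their values. MGAT4B had 264.5, 198, 232, 381 and 220.2 CPM in 50-week hens, against 276, 201.1, 351, 401 and 336.5 CPM in 35-week hens. The ages overlapped, and the log2 fold change was −0.27 (SE 0.23 and adjusted p = 0.758), or −0.66 (SE 0.19 and adjusted p = 0.0880) without the 3 libraries that stood apart. It was −0.44 without replicate 4 at 50 weeks, −0.15 without replicate 4 at 35 weeks and −0.47 with limma-voom. MGAT4A had too few counts to be tested, with 46 counts at 50 weeks and 44 at 35 weeks.

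MGAT2, which starts the second antenna of complex N-glycans, had 157, 328, 417, 253 and 285 CPM in 50-week hens, against 167, 192, 239, 271 and 288 CPM in 35-week hens. Its log2 fold change was 0.32 (SE 0.25 and adjusted p = 0.723), and was 0.48 without replicate 1 and 0.15 without replicate 3 at 50 weeks and 0.17 without the 3 libraries that stood apart. MGAT3, which adds the bisecting GlcNAc, had 12 counts at 50 weeks and 8 at 35 weeks, and MGAT4D had 6 at 50 weeks and 11 at 35 weeks. MGAT5 and MGAT5B had 3 counts together, and a second row under the symbol MGAT4C had none. Summed over the branching genes other than MGAT4C, the level was 604.5 ± 110.2 CPM in 50-week hens and 606 ± 119 CPM in 35-week hens (SD, n = 5 each).

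**Figure D4:**
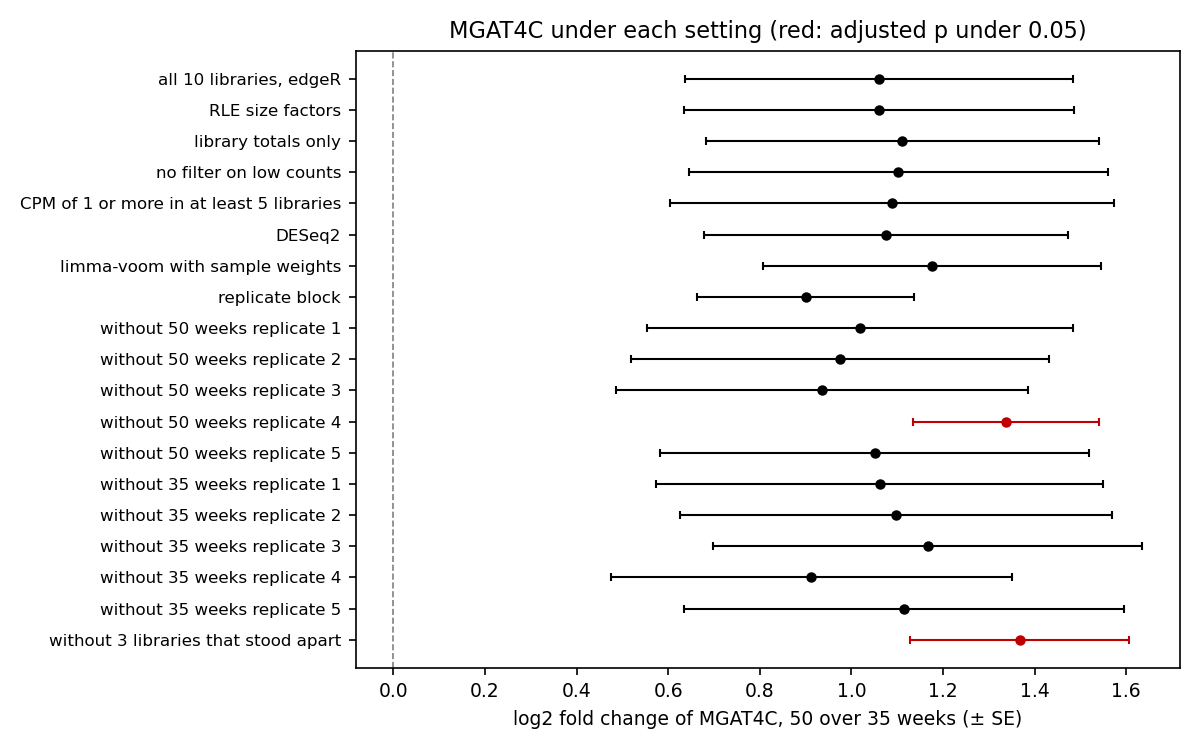
Log2 fold change of MGAT4C (x axis, 50 over 35 weeks, bars ± SE) under each normalization, filter, test and left-out library (rows), in red where the adjusted p was under 0.05. The fold change was positive in all 19 fits, between 0.90 and 1.37, and passed in the 2 that left out replicate 4 at 50 weeks.

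The GlcNAc extension family B3GNT, which builds the repeating backbone of poly-N-acetyllactosamine chains, held 75.7% of the group's counts. B3GNT7, known for extending keratan sulfate chains, had 6369, 7478, 7529, 6444 and 7617 CPM in 50-week hens, against 5890, 6007, 4781, 5569 and 5063 CPM in 35-week hens. It was the 1 tested gene of the 12 whose ages did not overlap, where 1.64% of all tested genes did not overlap, with 0.508% on the higher side at 50 weeks. Without replicate 4 at 50 weeks MGAT4C did not overlap either, 2 of 12, where 4.85% of all tested genes did not, 1.97% on the higher side. That hen was the only overlapping one at 50 weeks for MGAT4C and was left out with this known, so the count of 2 is no separate support. The means of B3GNT7 were 7087 ± 624 CPM at 50 and 5462 ± 528 CPM at 35 weeks (SD, n = 5 each), a log2 fold change of 0.38 (SE 0.13), with an unadjusted p of 0.0106 and an adjusted p of 0.292 in edgeR. Scaled by library totals alone the lowest 50-week hen (6336 CPM) also lay above the highest 35-week hen (5851 CPM). The fold change was positive in all 19 fits, between 0.34 and 0.51, with adjusted p between 0.0801 and 0.570.

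B3GNT4, another enzyme of this backbone, had 867, 894, 733, 894 and 773 CPM in 50-week hens, against 633, 660.2, 707, 802 and 833 CPM in 35-week hens. The ages overlapped (log2 fold change of 0.20 with SE 0.13, adjusted p = 0.666), and without the 3 libraries that stood apart the log2 fold change was 0.07. B3GNTL1, a related gene, had 130 ± 26.4 CPM in 50-week hens and 113 ± 28.6 CPM in 35-week hens (log2 fold change 0.20, SE 0.23). This value was 0.09 without replicate 3 at 50 weeks, 0.11 without replicate 1 and 0.37 without replicate 4 at 35 weeks, and 0.10 without the 3 libraries that stood apart. B3GNT5, which extends glycolipids, had 44 counts at 50 weeks and 42 at 35 weeks, and B3GNT2, B3GNT3, B3GNT9 and the row named B3GNT10 had 4 to 13 counts each. Without B3GNT7 the family summed to 1011 ± 61.1 CPM in 50-week hens and 899 ± 133 CPM in 35-week hens, with overlapping hens.

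Of the galactose addition genes, those of the beta-1,3 family held more counts, 353 over 4 rows. This is a difference in counts and no ranking of the families by expression. B3GALT5, which makes type 1 chains, had 132, 80.8, 50.6, 113 and 86.4 CPM in 50-week hens, against 86.0, 100.6, 133, 53.2 and 107 CPM in 35-week hens. Its log2 fold change was −0.05 (SE 0.30), and the sign turned on leaving out single libraries. B3GALT2, of the same family, had 63.7, 98.8, 75.8, 97.2 and 51.8 CPM in 50-week hens, against 22.6, 61.2, 69.1, 72.5 and 48.1 CPM in 35-week hens. The ages overlapped (log2 fold change of 0.51 with SE 0.33, adjusted p = 0.641), with 0.31 on leaving out replicate 1 at 35 weeks and 0.20 without the 3 libraries that stood apart. The beta-1,4 family, which places galactose on N-glycan antennae, had 40 counts over 8 rows. B4GALT1, its main member in most tissues, had 1 count in all 10 libraries together.

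Of 20 sialyltransferase genes 11 were detected. ST6GALNAC2, which puts sialic acid on the GalNAc of O-glycans, had 132, 121, 139, 179 and 177 CPM in 50-week hens, against 194.5, 223, 122, 82.2 and 58.8 CPM in 35-week hens. The 35-week hens were spread more widely and enclosed those at 50 weeks, with a log2 fold change of 0.13 (SE 0.32 and adjusted p = 0.931) that lay between −0.05 and 0.38 on leaving out single libraries. Without the 3 libraries that stood apart, 2 of which hold its highest values at 35 weeks, it was 0.71 (SE 0.29 and adjusted p = 0.268).

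ST3GAL3, which caps galactose, had 2, 5, 21, 11 and 7 counts at 50 weeks, against 0, 1, 4, 11 and 2 at 35 weeks. It had too few counts to be tested. In edgeR without the filter on low counts its log2 fold change was 1.15 (SE 0.50 and adjusted p = 0.581), in a fit that called 0.228% of 15792 genes. ST3GAL6 had 36 counts at 50 weeks and 39 at 35 weeks, and ST3GAL1 had 9 at 50 weeks and 12 at 35 weeks. ST6GAL1, which caps N-glycans in many tissues, had no count.

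Fucosyltransferases had 31 counts in all. FUT10 had 11 at 50 weeks and 8 at 35 weeks, FUT8, which adds the core fucose of N-glycans, had 3 at 50 weeks and 2 at 35 weeks, and FUT4 and FUT9 had none.

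O-GalNAc initiation was spread thinly over many genes. Of 16 GALNT genes 10 were detected, none of them in every library, with 134 counts in all. GALNT1 had 18 counts at 50 weeks and 16 at 35 weeks, GALNT7 had 9 at 50 weeks and 13 at 35 weeks, and GALNT10 had 10 at 50 weeks and 12 at 35 weeks. The 6 without a count were GALNT9, GALNT13, GALNT14, GALNT16, GALNT17 and GALNTL6. The family summed to 53.9 ± 5.73 CPM in 50-week hens and 70.4 ± 19.4 CPM in 35-week hens (SD, n = 5 each), with overlapping hens. GCNT7, of the family that branches O-glycans and GlcNAc chains, had 17 counts at 50 weeks and 16 at 35 weeks, and GCNT3 had its 5 counts in 1 library, replicate 4 at 50 weeks.

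MAN2C1, a cytosolic mannosidase that trims free oligosaccharides released from glycoproteins, had 186, 189, 282, 253 and 259 CPM in 50-week hens, against 222, 157, 191, 198 and 128 CPM in 35-week hens. The means were 234 ± 43.8 CPM at 50 and 179 ± 36.7 CPM at 35 weeks with overlapping ages, a log2 fold change of 0.38 (SE 0.20 and adjusted p = 0.548). The lysosomal relative MAN2B2 had 17 counts at 50 weeks and 22 at 35 weeks.

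The genes differed in how much of their spread between hens exceeds counting error. RPN1 varied by 31.0% (coefficient of variation) at 50 weeks and 28.8% at 35 weeks, where its counts alone would give 32.3% at 50 weeks and 31.3% at 35 weeks. B3GNT7 varied by 8.81% at 50 weeks (2.47% from counting) and 9.67% at 35 weeks (2.97% from counting). MGAT4C varied by 46.1% at 50 weeks (6.82% from counting) and 27.6% at 35 weeks (10.3% from counting), and by 9.88% at 50 weeks without replicate 4. The spread between separate hens includes differences between the hens. For ST6GALNAC2 the spread was 17.8% at 50 weeks, close to the 16.9% of counting, and 52.0% at 35 weeks, against 18.6% from counting.

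Of the 91 genes too low to test, 70 had a count. The 20 with the highest sums held 17 to 90 counts each. None of these 20 was separated by age, where 1.22% of the 2946 untested genes in the same range of summed counts were, and the other 50 held 1 to 17 counts each. With the filter removed, 5 of the 82 detected genes had an unadjusted p under 0.05, where 5.86% of all 15792 genes had, and none passed after adjustment (lowest adjusted p 0.491).

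Related pathways were read from 7 lists with 100 genes in the table, of which 27 were tested and none passed in edgeR (0.0564% of all tested genes did). The fold change was positive for 8 and negative for 19, where 49.2% of all tested genes were negative. The list of egg white glycoproteins, which are not pathway enzymes, supplied 11 of the 27, with 2 positive and 9 negative. At an unadjusted p under 0.05 in edgeR there were 10, of which 9 were lower at 50 weeks, 7 of them egg white glycoproteins. Over all tested genes 10.5% were past this level, and 6.03% were past it and lower. Means or fold changes are given for up to 3 tested genes per list with the highest mean CPM, a rule chosen after the values were seen. OVALY and OVALX are named for their separation by age, and the untested TUSC3, MAGT1 and TMEM258 with their counts. POMGNT2, which extends the O-mannose chains of dystroglycan, averaged 3334 ± 1197 CPM in 50-week hens and 1623 ± 468 CPM in 35-week hens (log2 fold change of 1.04 with SE 0.28, adjusted p = 0.2395 in edgeR). It passed with either looser filter (adjusted p = 1.29e-06 and 9.57e-05), DESeq2 (0.0438), limma-voom (0.0400), without replicate 4 at 50 weeks (0.0133) and without the 3 libraries that stood apart (0.00695). The share of all genes that passed in these fits was 0.228%, 0.506%, 0.904%, 0.677%, 0.654% and 2.3%, in the same order. With the looser filters the log2 fold change of POMGNT2 was little changed, at 1.08 and 1.07, and its SE fell to 0.17 and 0.18. The ages overlapped. Replicate 4 at 50 weeks had its lowest value of that age (1501 CPM, against 3100 to 4793). Replicate 1 at 35 weeks had its highest of that age (2267 CPM). These libraries were left out with earlier results known, so the adjusted p-values without them are no separate support. In the authors' deposited table the adjusted p of POMGNT2 was 0.0636. C1GALT1C1, the chaperone of the enzyme that makes the core 1 O-glycan, averaged 847 ± 80.0 CPM at 50 and 734 ± 69.8 CPM at 35 weeks (0.21 on the log2 scale, SE 0.13), and B3GALNT1 averaged 2605 ± 935 CPM at 50 and 2739 ± 718 CPM at 35 weeks (−0.07, SE 0.23).

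Genes of sugar supply and of glycan-guided folding did not pass either. The sugar nucleotide transporter SLC35D1 averaged 376 ± 142 CPM in 50-week hens and 384 ± 54.6 CPM in 35-week hens, and the mannose phosphate isomerase MPI averaged 241.5 ± 51.4 CPM at 50 and 233 ± 51.3 CPM at 35 weeks. For galactokinase GALK1 the means were 224 ± 202 CPM at 50 and 148 ± 119 CPM at 35 weeks, with 579 CPM in replicate 4 at 50 weeks, without which its log2 fold change of 0.59 was −0.14, and for dolichol kinase DOLK 73.4 ± 36.2 CPM at 50 and 53.0 ± 14.0 CPM at 35 weeks. CALR, the lectin chaperone calreticulin, averaged 309 ± 62.4 CPM at 50 and 471 ± 74.4 CPM at 35 weeks (a difference of −0.61 on the log2 scale with SE 0.18, adjusted p = 0.249), and UGGT2, of the folding sensor family, 47.7 ± 23.1 CPM at 50 and 66.7 ± 7.86 CPM at 35 weeks. In glycan breakdown FUCA2, a fucosidase, averaged 307 ± 33.3 CPM at 50 and 363.5 ± 64.0 CPM at 35 weeks, and CTBS, chitobiase, 245 ± 59.0 CPM at 50 and 343 ± 80.8 CPM at 35 weeks. CTBS had a log2 fold change of −0.48 (SE 0.21 and adjusted p = 0.463 in edgeR). Without the 3 libraries that stood apart it was −0.83 (adjusted p = 0.0458 in edgeR), where 2.3% of all genes were called. Those libraries held its highest value at 50 weeks (327 CPM) and its lowest values at 35 weeks (267 and 245 CPM). They were left out with earlier results known, so this adjusted p is no separate support. Among 11 tested egg white glycoproteins 9 had negative fold changes, where 49.2% of all tested genes had. Of these 9, 7 had an unadjusted p under 0.05 in edgeR, where 6.03% of all tested genes were past this level and lower. TF, SPINK7, OVALY and OVALX were lower in every 50-week hen than in every 35-week hen, 4 of 11, where 1.13% of all tested genes were. OVAL had a log2 fold change of −0.37, TF of −0.83 and SPINK7 (ovomucoid) of −0.78. TF and SPINK7 passed with either looser filter and DESeq2, and TF with limma-voom. In these fits 0.228%, 0.506%, 0.904% and 0.677% of all genes passed, in the same order.

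**Figure D5:**
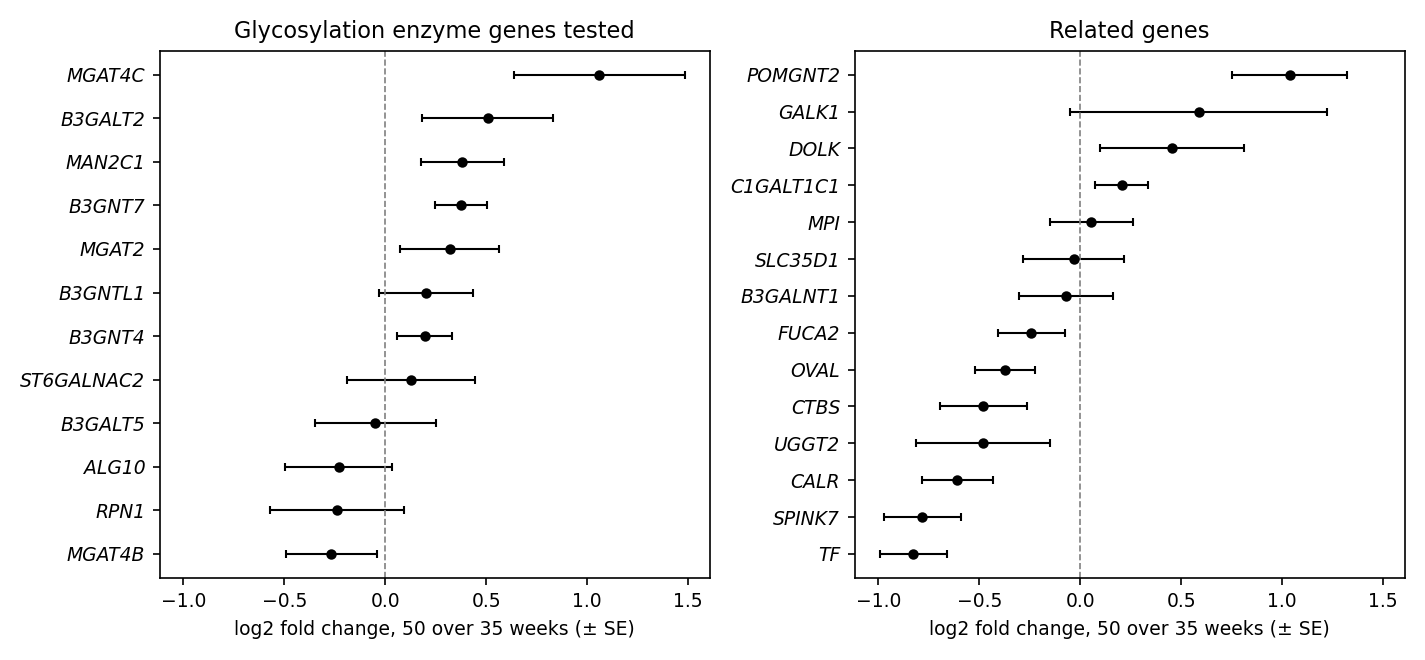
Log2 fold change (50 over 35 weeks, bars ± SE) of the 12 tested glycosylation enzyme genes (left) and of the related genes given with means or fold changes (right). MGAT4C at 1.06 and POMGNT2 at 1.04 are the highest of their panels, and MGAT4B at −0.27 and TF at −0.83 the lowest.

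The sources used here do not give the strand setting of the counting, so reads of a gene and of an overlapping neighbour may not have been told apart. B3GNT7 (chromosome 9 at 14956641 to 14971828, GRCg7b) overlaps ARMC9, which had 1 count in all, and lies 1184 bases from NCL, the gene of the abundant nucleolar protein nucleolin, which had 99 counts against 13848 for B3GNT7. B3GNT4 overlaps LRRC43 (1 count), and MGAT4C lies 753 bases from TMEM9 (7 counts). RPN1 overlaps RAB7A, with 34 counts against 99, and B3GNTL1 overlaps TBCD, with 67 counts against 265. Overlapping neighbours of some genes, among them ST3GAL3, GALNT7 and B3GALT5, could not be matched to counts. Among those that could, an overlapping neighbour had more counts than the gene itself for 9 genes of the group. MGAT4A had 90 against 96 for UNC50, MAN1B1 had 19 against 127 for DPP7, and FUT10 had 19 against 49 for FNTA. The other 6 (B3GNT9, GALNT3, ALG12, B4GALT4, GCNT3 and MGAT5B) had 1 to 13 counts in all, and the neighbour with most, CSRNP3 beside GALNT3, had 703. Close neighbours without overlap also had more counts for other genes, among them DPM1, 70 bases from MOCS3 (26 against 2792 counts). DPAGT1, with 24 counts, lies 148 bases from H2AFX (1645 counts) and 49 bases from C2CD2L (1281 counts). ALG5 lies 62 bases from EXOSC8 (46 against 293 counts), and B3GALT6 435 bases from SDF4 (3 against 118 counts). The part of neighbours in any count was not tested.

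In the authors' deposited table of 203 genes, whose sign runs as 35 over 50 weeks, MGAT4C was the 1 gene of the group, with a log2 fold change of −1.08 (SE 0.39, p = 0.00611, adjusted p = 0.272). The group is 103 of the 29558 genes counted, and supplied 1 of the 203 genes listed there. Of these 203 genes, 6 had an adjusted p under 0.05 in the authors' deposited table and 109 had no adjusted p. A place in the authors' deposited table is therefore no sign of passing after adjustment. The smallest absolute log2 fold change in the authors' deposited table was 0.957, above that of B3GNT7 here.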

How the data were processed

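Whole-number counts per Ensembl gene, not normalized, were deposited by the authors for 10 libraries. Per the submitters' processing notes, Trimmomatic, HISAT2, Cufflinks, DESeq2 and the build GRCg7b were used. Neither the counter nor its strand setting is stated in the sources used here, and the library kit marks strand per the labels. The authors' deposited comparison holds log2 fold changes, p-values, a score (Wald statistic) and mean normalised counts (a signal), per the file headers.

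The test was edgeR 4.0.16 under R 4.3.3: filterByExpr (minimum count 10), TMM, glmQLFit (robust), then glmQLFTest (two-sided) on age alone, with Benjamini-Hochberg adjustment. CPM used library totals times TMM factors, and marker sums used library totals alone. Errors are SDs over hens. The pipeline was run on simulated data with the same spread between hens (coefficient of variation 0.285) for every gene. That run does not tell whether changes like those of the genes above could have been called. Alternatives were RLE or no scaling, no filter, a filter of 1 CPM in 5 or more libraries, limma-voom (limma 3.58.1) with sample weights, DESeq2 1.42.0, a replicate block and left-out libraries. A single count lies above 1 CPM at these library totals, so that filter kept every gene with a count in 5 or more libraries. Libraries of 1 age differed by more than sampling noise (chi-square per degree of freedom at least 2.66). Of the 103 genes 98 were matched to a RefSeq table (GRCg7b), 47 of them by NCBI gene ID and the others by symbol, and neighbours were read within 2 kb. Members, lists and the 3 libraries left out were chosen with earlier results of these data known. Named are all tested members, the 20 untested members with the most counts, and other members by step, chosen after their values were seen. Figures used Python 3.11.15 and matplotlib 3.10.9.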

Additional observations from a re-analysis of the deposited data

Results flagged for a closer look

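Within each age, a hen was singled out when the gap to its nearest neighbour was a larger part of the range over the 5 hens than Dixon's 95% critical value allows. This was checked in 92 sets of 5 hens, 2 for each of 46 genes, and picked out 4. For normally distributed values chance picks out about 1 in 20, and 4 of 92 is not above that rate. The total does not tell whether any single value arose by chance. All but the OVAL value fell in replicate 4 at 50 weeks, which also stood apart on the first principal component. Replicate 4 at 50 weeks had 187 CPM of MGAT4C (48 counts), against 1015 to 1272 CPM in the other hens of its age. It also had 579 CPM of GALK1 against 93.1 to 190 CPM, and 4246 CPM of B3GALNT1 against 1934 to 2403 CPM. Replicate 1 at 35 weeks had 32990 CPM of OVAL against 24770 to 27120 CPM in the other hens of its age.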

How the results depend on the processing

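The number of tested glycosylation enzyme genes past an adjusted p under 0.05 was 0 with every other scaling, filter and tool and 0 to 1 on leaving out single libraries, with 1 (MGAT4C) without replicate 4 at 50 weeks and 1 (MGAT4C) without the 3 libraries that stood apart. Over all genes, where 1 passed, 36 passed without a filter, 40 with a filter of 1 CPM, 16 with DESeq2, 12 with limma-voom, 42 without the 3 libraries and 1 to 12 on leaving out single libraries, the 12 without replicate 4 at 50 weeks. Of the related genes 5 passed without a filter (0.228% of all genes in that fit did), 5 with the CPM filter (0.506%) and 4 with DESeq2 (0.904%). With limma-voom 3 passed (0.677%), and 3 without the 3 libraries (2.3%). Leaving out single libraries gave 0 to 2, the 2 without replicate 4 at 50 weeks (0.654%). The main filter kept 27 related genes, and 98 had a count and entered the fit without a filter. The median log2 fold change of the 12 genes ranged from 0.15 to 0.30 on leaving out single libraries, the higher value without replicate 4 at 35 weeks. The share of counts differed by 0.413 percentage points over the counts of genes with a symbol, and by 0.0744 without B3GNT7, an alternative chosen after seeing the data. Detection fell to 45 genes at a mean of 1 count or more and to 21 with a count in all 10 libraries.

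With the replicate number as a block 2 genes passed over all, none of them a glycosylation enzyme gene of the 12, and MGAT4C had a log2 fold change of 0.90 (adjusted p = 0.172 in edgeR). The numbers did not pair the hens: the correlation of same-numbered hens lay between −0.115 and 0.098, and in 1 of 5 pairs both hens correlated best with each other.

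Of 216 single-gene values of the 12 genes under alternatives, 209 kept direction and side of the threshold, 2 newly passed (both MGAT4C) and 5 changed sign. The sign changed for ST6GALNAC2 (−0.054 to 0.38 on leaving out single libraries) and B3GALT5 (−0.19 to 0.11). Among related genes it changed for GALK1 (−0.14 to 1.13), B3GALNT1 (−0.31 to 0.041), MPI (−0.048 to 0.17, −0.0039 with limma-voom and −0.16 without the 3 libraries) and SLC35D1 (−0.18 to 0.17, 0.017 by library totals and 0.077 without the 3 libraries). The cause was not tested. At 188271 to 258195 counts per library, 91 of the 103 genes did not pass the filter on low counts.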
